A study of Mus musculus with 24 samples.

Results

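IL-17A was examined in mouse alveolar macrophages that received no IL-13, in cells given IL-17A with no other cytokine and in cells given it together with IL-33. Alveolar macrophages are the resident phagocytes of the air spaces. They were primary cells of wild-type BALB/cJ mice, stimulated with recombinant cytokines and harvested after 20 h. The groups were IL-17A against untreated cells, called here the cytokine-free background, and IL-33 with IL-17A against IL-33, called the IL-33 background. Each group had 3 libraries, so 12 of the 24 libraries of the series were compared, and 13215 of the 17017 deposited genes were tested because they reached 1 TPM (transcript abundance scaled for gene length and depth) in at least 3 of the 24. The other 12 libraries held IL-13 and entered this filter, the shared estimate of the spread and 1 comparison given for scale, IL-13 against untreated cells. No label ties a library to an animal or a culture, so the spread behind the p-values is that of these libraries and may be technical.

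IL-17A is a cytokine of neutrophilic inflammation. It binds a receptor made of the subunits Il17ra and Il17rc, which recruits the adaptor Act1 (gene Traf3ip2). Act1 engages Traf6 to activate NF-kB and MAP kinases, and engages other TRAF proteins and RNA-binding proteins to stabilise short-lived transcripts. The known targets, mostly described in epithelial cells and fibroblasts, include the neutrophil chemokines Cxcl1, Cxcl2 and Cxcl5, the growth factor Csf3, the antimicrobial lipocalin Lcn2, metalloproteases and the regulators Nfkbiz, Cebpd and Zc3h12a. By its title the series is about factors from cytokine-treated lung fibroblasts that act on macrophages, and these libraries ask what IL-17A does to the macrophages directly.

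No gene differed with IL-17A in either background at the threshold used, a limma p-value adjusted over all 13215 genes under 0.05. In the cytokine-free background 0 genes were called (0%), in the IL-33 background 0 (0%), for the average of both 0 (0%) and for the difference between the backgrounds 0 (0%). The smallest adjusted p-values were 0.323, 0.535, 0.86 and 0.392 in the same order. At an unadjusted limma p under 0.05 there were 469 genes (3.55%) in the cytokine-free background, 497 (3.76%) in the IL-33 background, 473 (3.58%) for the average and 466 (3.53%) for the difference. A different fit, limma-voom on reads estimated from the TPM values, also called 0 genes in each and had 428, 432, 388 and 515 genes at an unadjusted p under 0.05. In the limma fit, IL-13 against untreated cells gave 3932 called genes (29.8%) from 3 libraries a group.

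**Figure D1:**
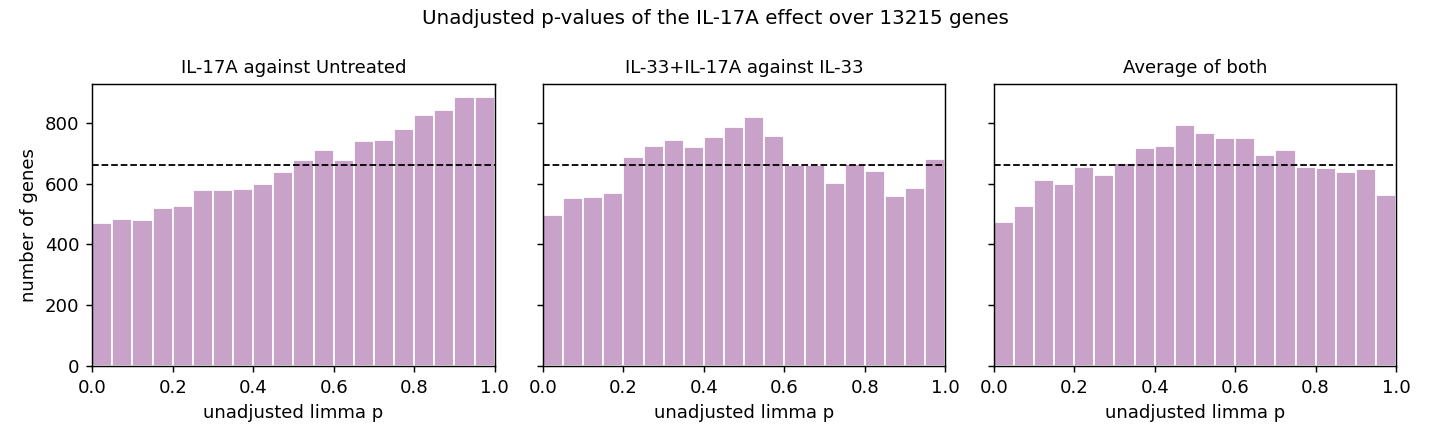
Number of genes (y) by unadjusted limma p (x, 20 bins) for IL-17A against Untreated, IL-33+IL-17A against IL-33, and their average, over 13215 genes. The dashed line is an even spread of p-values (660.75 genes a bin), and in each panel the lowest bin lies below it. The highest bin holds 884 genes for IL-17A against Untreated, 682 for IL-33+IL-17A against IL-33 and 563 for the average. The cause of the tilt toward high p-values in the first panel was not tested.

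The intervals of the changes say how large an effect these libraries could have missed. Among the 6813 genes that averaged at least 10 TPM, the 95% interval of the change lay inside a 2-fold change in either direction for 98% of genes in the cytokine-free background, for 98% in the IL-33 background and for 99.1% of averaged effects. It lay inside 1.5-fold for 95%, 94.5% and 97.1% of them. Genes below 10 TPM, 6402 of those tested, were less well bounded, with 73.8%, 73.5% and 84.8% inside 2-fold. The median standard error of a log2 change was 0.10 in a single background and 0.07 for the average. These intervals are per gene and are not adjusted for the number of genes. They are on log2(TPM + 1), a scale that understates fold changes of low genes.

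TPM multiplied by gene length gave 9.11 to 12.86 M estimated reads per library, and 11941 to 12204 genes reached 1 TPM. Of the alveolar macrophage identity list, 18 of 19 genes were tested and 0 were called, and the summed level of the list ran over 10200 to 10700 TPM with IL-17A and 10400 to 10700 TPM in untreated cells. It ran over 10300 to 10800 TPM with IL-33 and IL-17A and 9990 to 10600 TPM with IL-33. TPM here is per gene span, introns included, so levels of different genes were compared as estimated reads per kilobase of merged exons and M reads of the library, given next as the range of the 4 group means. On that scale the identity genes Itgax (712 to 744), Cd9 (705 to 725), Cebpa (245 to 254), Siglecf (146 to 154) and Pparg (32.5 to 35.5) were well expressed, while Marco (0.311 to 0.441) and Car4 (0.0324 to 0.0682), which often mark these cells, were not. Markers of other cell types were uneven within their lists. Of the fibroblast list (5 of 8 in the files), Col1a1 was at 0 to 0.00788 and Dcn at 0 to 0.0239, and Fn1 was highest at 2.32 to 2.66, beside Pdgfra at 2.26 to 2.62. Of the endothelium list (4 of 5), Pecam1 was at 0 to 0.0096 and Vwf highest at 8.53 to 9.14. Of the epithelium list (5 of 9), Krt8 was at 0 to 0.0867 and Hopx highest at 21.4 to 22.7. Of the granulocyte and mast cell list (4 of 10), Camp was at 0.088 to 0.177 and S100a8 highest at 19.2 to 21.8. Clec9a was the highest of 3 dendritic cell markers at 1.19 to 1.58, C1qa the highest of 5 markers of monocytes and interstitial macrophages at 1.5 to 2.39, and Cd4, the 1 lymphocyte marker in the files, was at 0.0731 to 0.171. Among the tested members of these lists 0 were called, and the summed TPM of the fibroblast list ran over 9.9 to 11.4 with IL-17A and 8.22 to 10.8 in untreated cells, and over 10.5 to 11.5 with IL-33 and IL-17A and 8.55 to 10.9 with IL-33. Pairs of libraries were as alike between the compared groups as within them, with a median correlation across genes at 10 TPM or more of 0.9933 between IL-17A and untreated libraries, 0.9929 between IL-33+IL-17A and IL-33 libraries, and 0.9934 within groups. These are bulk libraries, in which fewer cells of a type and less RNA per cell cannot be told apart.

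The receptor chain Il17ra was well expressed, while the other chain and the adaptor of the pathway were near the detection limit. Per kilobase of merged exons and M reads, Il17ra (ENSMUSG00000002897, mm10 chr6:120463247-120487559) averaged 12.5 ± 0.895 with IL-17A, 13 ± 0.222 in untreated cells, 12.8 ± 1.12 with IL-33 and IL-17A and 12.5 ± 0.246 with IL-33 (SD, n = 3 each). Il17rc averaged 0.217 ± 0.11 with IL-17A (21 estimated reads), 0.145 ± 0.0673 in untreated cells (12 reads), 0.302 ± 0.0872 with IL-33 and IL-17A (24 reads) and 0.101 ± 0.078 with IL-33 (8 reads). Traf3ip2, which encodes Act1, averaged 0.0589 ± 0.022 with IL-17A (8 reads), 0.0448 ± 0.0169 in untreated cells (5 reads), 0.0266 ± 0.0275 with IL-33 and IL-17A (3 reads) and 0.0273 ± 0.00229 with IL-33 (3 reads). Traf6, the ubiquitin ligase below Act1, lay at 5.33 to 5.67 in the 4 group means. On this scale every group mean of Il17rc and Traf3ip2 was under that of Traf6 and Il17ra. Il17rc, Il17rb (6 estimated reads in the 12 libraries) and Traf3ip2 did not pass the filter on low values and were not tested, and Il17rd and Il17re were not analysed here.

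Il17ra itself did not differ detectably with IL-17A. Its TPM values were 51.5, 42.4 and 44.3 with IL-17A, against 44.3, 49.1 and 49.5 in untreated cells. They were 41.9, 50.4 and 51.2 with IL-33 and IL-17A, against 44.6, 44.1 and 47.8 with IL-33. The groups overlapped in both backgrounds, the averaged log2 change was 0.0074 ± 0.0681 (SE) and its 95% interval ran from -0.14 to 0.15.

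None of the tested signalling transcripts differed detectably. Of 27 listed genes between the receptor and NF-kB, MAP kinases or transcript stability, 26 were tested, 0 were called and 0 had an unadjusted p under 0.05 in either background or on average. Their median log2 changes were 0.035, 0.047 and 0.037 in the cytokine-free background, the IL-33 background and the average, beside 0.025, 0.033 and 0.03 over all tested genes. All 26 had a 95% interval inside 2-fold in each of the 3. Traf6 had 20, 16.9 and 20.2 TPM with IL-17A, against 15.6, 19.7 and 20.6 TPM in untreated cells, and 18.5, 20.5 and 20.9 TPM with IL-33 and IL-17A, against 19.2, 20 and 19.9 TPM with IL-33. The groups overlapped in both. Zc3h12a, the ribonuclease that degrades inflammatory transcripts and limits IL-17A signalling, averaged 59.1 ± 2.54 TPM with IL-17A and 57 ± 2.31 TPM in untreated cells, and 59.2 ± 4.13 TPM with IL-33 and IL-17A and 57.7 ± 1.98 TPM with IL-33 (SD, n = 3 each). Elavl1, which binds and stabilises AU-rich transcripts, had the smallest averaged p of the list, with a log2 change of 0.07 at an unadjusted limma p of 0.0806. The MAP kinase gene Mapk8, at a low mean of 1.77 TPM, was higher with IL-17A without overlap in both backgrounds. This held for 0.318% of all tested genes. Its averaged log2 change was 0.12 at an unadjusted limma p of 0.0952 and an adjusted p of 0.983.

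No tested gene known as an IL-17A target was detectably higher with IL-17A. Of 26 listed, 16 were in the files and 13 were tested, and 0 were called in either direction in any comparison. At an unadjusted limma p under 0.05, 0 were higher and 1 lower in the cytokine-free background, 0 higher and 3 lower in the IL-33 background, and 0 higher and 2 lower on average. Over all tested genes the shares were 2.65% higher and 0.9% lower in the cytokine-free background, 2.14% and 1.62% in the IL-33 background, and 2.71% and 0.87% on average. Log2 changes were positive for 6, 5 and 6 of the 13 in the cytokine-free background, the IL-33 background and the average, with medians of -0.0076, -0.15 and -0.041, beside 0.025, 0.033 and 0.03 over all tested genes. Of the 3 that were in the files and not tested, Lcn2 had 8 estimated reads in the 12 libraries, Mmp9 8 and Ptgs2 52, and the other listed targets, Csf3 and Cxcl5 among them, were not analysed here.

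**Figure D2:**
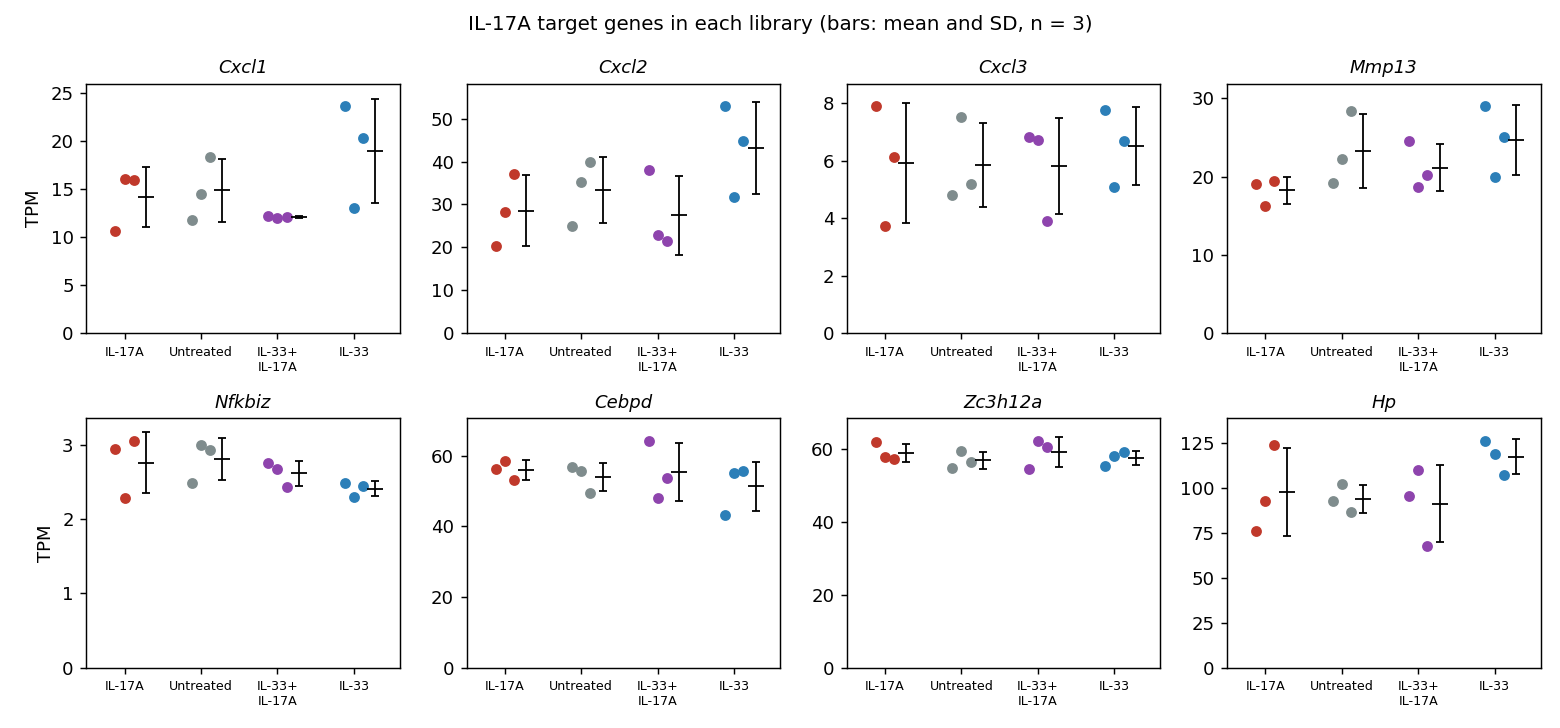
TPM (y) of 8 IL-17A target genes in each of the 12 libraries, 3 points per group, with the mean and SD as a bar beside them. For Cxcl1 and Cxcl2 the IL-33+IL-17A means of 12.1 and 27.4 TPM lie below the IL-33 means of 19 and 43.1 TPM. These points overlap for Cxcl2 and not for Cxcl1, and the IL-17A and Untreated points overlap for both genes.

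The neutrophil chemokines Cxcl1 and Cxcl2 are the direct point of comparison with other cell types, where IL-17A raises them. Their promoters are shown because they carry the NF-kB-type motif GGGNNNNTCC, in capitals below. The 250 bases before each RefSeq gene start in GRCm38.p6 were searched on both strands, and overlapping matches were counted separately. Cxcl1 (chr5:90890995-90891244, plus strand) and Cxcl2 (chr5:90903649-90903898, plus strand) had 3 matches each, against 0 in the same window of Tnf and 0 in that of Il1b, and 16.5% of 32536 mouse promoters held at least 1.
Cxcl1: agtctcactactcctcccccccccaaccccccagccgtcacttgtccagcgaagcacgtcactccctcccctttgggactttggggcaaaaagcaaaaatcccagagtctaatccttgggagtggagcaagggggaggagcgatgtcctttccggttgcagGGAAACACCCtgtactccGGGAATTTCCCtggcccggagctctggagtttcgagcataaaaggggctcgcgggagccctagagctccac
Cxcl2: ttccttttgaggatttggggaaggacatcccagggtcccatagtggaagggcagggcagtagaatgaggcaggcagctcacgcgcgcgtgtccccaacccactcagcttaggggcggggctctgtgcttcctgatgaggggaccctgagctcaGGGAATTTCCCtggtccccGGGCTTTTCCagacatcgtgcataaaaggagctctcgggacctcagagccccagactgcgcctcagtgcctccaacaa

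Cxcl1 (ENSMUSG00000029380) had 10.6, 16 and 15.9 TPM with IL-17A, against 11.8, 14.5 and 18.3 TPM in untreated cells. The groups overlapped, with a log2 change of -0.07 and a 95% interval from -0.58 to 0.44. In the IL-33 background it had 12.2, 12 and 12.1 TPM with IL-33 and IL-17A, against 23.6, 13 and 20.3 TPM with IL-33. All 3 libraries with both cytokines lay below the lowest with IL-33 alone, and the log2 change was -0.57 ± 0.243 (SE), with an unadjusted limma p of 0.0307 and an adjusted p of 0.972. For Cxcl2 (ENSMUSG00000058427) the values were 20.4, 28.2 and 37 TPM with IL-17A, against 24.9, 35.3 and 40 TPM in untreated cells, and 38.1, 22.8 and 21.4 TPM with IL-33 and IL-17A, against 52.9, 31.7 and 44.9 TPM with IL-33. The groups overlapped in both backgrounds, and the log2 changes were -0.23 ± 0.236 and -0.65 ± 0.236 (SE). For the IL-33 background the unadjusted limma p of Cxcl2 was 0.0126 and the adjusted p 0.972. Cxcl3, the neighbouring chemokine, averaged 5.92 TPM with IL-17A and 5.83 TPM in untreated cells, and 5.81 TPM with IL-33 and IL-17A and 6.51 TPM with IL-33.

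Mmp13, the collagenase that IL-17A raises in fibroblasts, had the smallest averaged p of the tested targets. It had 19, 16.3 and 19.4 TPM with IL-17A, against 19.2, 22.2 and 28.4 TPM in untreated cells. In the IL-33 background it had 24.5, 18.7 and 20.2 TPM with both cytokines, against 29, 20 and 25.1 TPM with IL-33. Its groups overlapped in both, and the averaged log2 change of -0.27 ± 0.0939 (SE) had an unadjusted limma p of 0.0111 and an adjusted p of 0.983. Among the 12 compared libraries, 3 have title numbers outside the run of the others (1 with IL-33, 2 with IL-33 and IL-17A). Leaving them out brought the averaged log2 change of Mmp13 to -0.15. A library with IL-33, IL-13 and IL-17A, title number 36, is also outside the run and stayed in that fit.

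The regulators among the targets were bounded closely. Nfkbiz, the IkB-zeta factor that drives secondary IL-17A targets, averaged 2.76 ± 0.412 TPM with IL-17A and 2.8 ± 0.282 TPM in untreated cells, and 2.62 ± 0.168 TPM with IL-33 and IL-17A and 2.41 ± 0.0972 TPM with IL-33 (SD, n = 3 each). Its averaged change had a 95% interval from -0.13 to 0.19 on the log2 scale. For Cebpb and Cebpd, the C/EBP factors of the pathway, the intervals ran from -0.061 to 0.079 and from -0.09 to 0.25. Tnfaip3, the A20 deubiquitinase, and the adhesion molecule Icam1 had averaged log2 changes of 0.043 and -0.041. Hp, the acute phase protein haptoglobin, had 95.6, 110 and 67.8 TPM with IL-33 and IL-17A, against 126, 119 and 107 TPM with IL-33, groups that overlapped, with a log2 change of -0.39 at an unadjusted limma p of 0.0291 and 0.03 in the cytokine-free background. Ccl2 was at 0 in 2 of 3 libraries with IL-17A and 1 of 3 untreated, and in 3 of 3 with IL-33 and IL-17A and 2 of 3 with IL-33, with no library above 1.03 TPM.

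**Figure D3:**
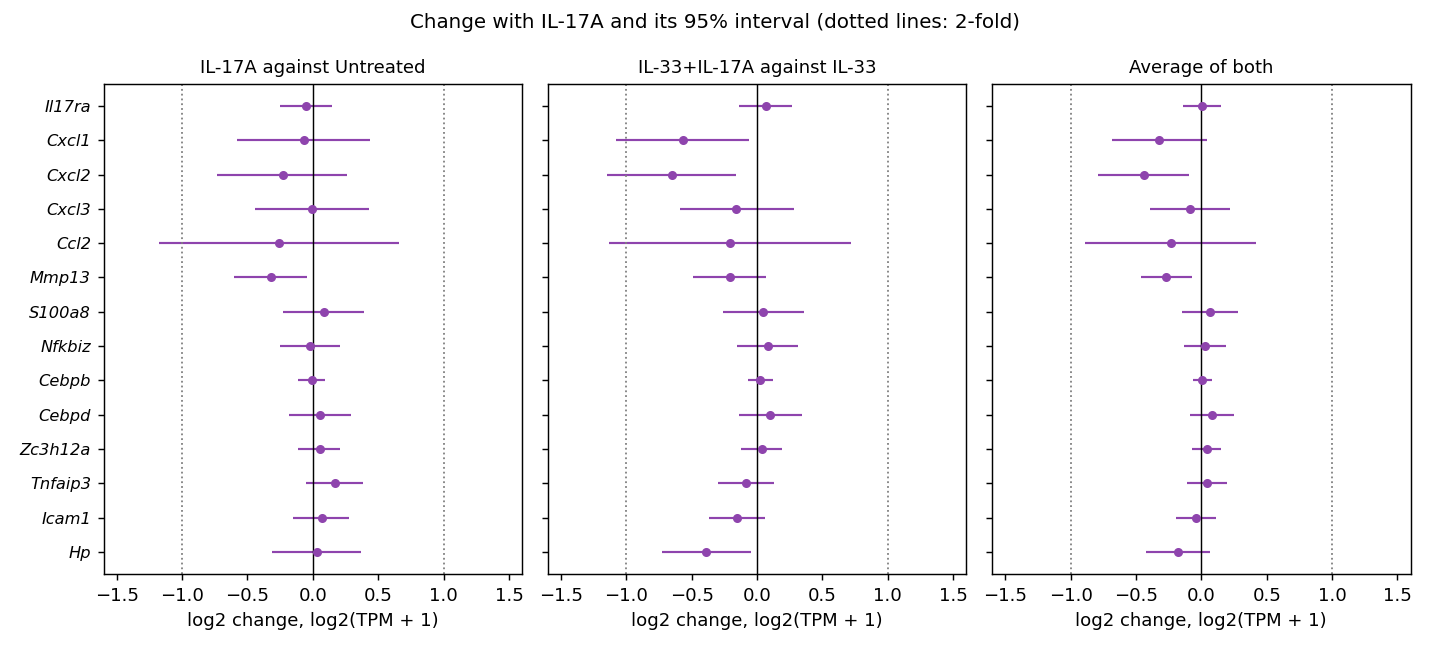
Log2 change with IL-17A (x, on log2(TPM + 1)) of the receptor Il17ra and the 13 tested target genes, with 95% limma intervals, in the cytokine-free background, the IL-33 background and on average. Dotted lines mark a 2-fold change, and on average all 13 target intervals lie inside it. For Ccl2, at a mean of 0.243 TPM over the 12 libraries, the scale narrows the interval. Its interval therefore does not bound the fold change of the transcript.

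The inflammatory cytokines Tnf and Il1b had the smallest p-values among the named genes lower with IL-17A in the IL-33 background. Tnf (ENSMUSG00000024401, mm10 chr17:35199381-35202007) had 127, 127 and 109 TPM with IL-33 and IL-17A, against 172, 141 and 168 TPM with IL-33. The groups did not overlap, which was a condition for naming genes by smallest p in this background. It held for 10.4% of all tested genes. The log2 change of Tnf was -0.40 ± 0.0833 (SE, 95% interval -0.57 to -0.22), with an unadjusted limma p of 0.000144 and an adjusted p of 0.535. In cells without IL-33, Tnf had 119, 131 and 132 TPM with IL-17A, against 118, 137 and 127 TPM untreated, a log2 change of 0.0016. The values with both cytokines lay in the range of the cells without IL-33 in 2 of 3 libraries and below it in 1.

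Il1b (ENSMUSG00000027398, mm10 chr2:129364570-129371139), which encodes interleukin-1 beta, had 4.26, 4.78 and 4.31 TPM with IL-33 and IL-17A, against 8.1, 5.91 and 7.43 TPM with IL-33. These groups did not overlap either, and the log2 change was -0.57 ± 0.121 (SE, 95% interval -0.83 to -0.32), with an unadjusted limma p of 0.000162 and an adjusted p of 0.535. Without IL-33 it had 4.86, 4.56 and 6.81 TPM with IL-17A, against 5.6, 4.59 and 5.83 TPM untreated, a log2 change of 0.0047 between overlapping groups. The difference of the effect between backgrounds was -0.40 for Tnf and -0.58 for Il1b, with unadjusted limma p-values of 0.00316 and 0.00334 and adjusted p-values of 1 and 1. Without the 3 compared libraries of outlying title numbers, the log2 changes in the IL-33 background were -0.29 for Tnf and -0.59 for Il1b.

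Genes of the same kind were examined as lists, and the first list holds Tnf and Il1b themselves. Of 18 tested inflammatory cytokines and chemokines, 0 were higher and 3 lower at an unadjusted limma p under 0.05 in the IL-33 background. All tested genes had 2.14% higher and 1.62% lower there. The 3 were Tnf and Il1b, already named for their small p in this background, and the macrophage chemokine Ccl3 with a log2 change of -0.31. The list's median log2 change was -0.037 there and 0.03 in the cytokine-free background, beside 0.033 and 0.025 over all genes. Of 14 NF-kB subunits and feedback regulators, 0 were higher and 2 lower at that level in the IL-33 background, beside the same shares over all genes, and the list's median log2 change was -0.032. These were the inhibitors Nfkbia and Nfkbie. Nfkbia had 239, 248 and 192 TPM with IL-33 and IL-17A, against 260, 239 and 284 TPM with IL-33, and Nfkbie had 69, 68.5 and 57.1 TPM with both cytokines, against 73.7, 69.4 and 86.5 TPM with IL-33. The Nfkbia groups overlapped and the Nfkbie groups did not. The log2 changes were -0.21 and -0.23, against 0.03 and 0.04 in the cytokine-free background, and 0 of the 14 had an unadjusted p under 0.05 in that background. Il1rn, the secreted antagonist of the interleukin-1 receptor, had 140, 153 and 175 TPM with IL-17A, against 110, 133 and 132 TPM in untreated cells, without overlap. Its log2 change was 0.32 at an unadjusted limma p of 0.00187 and an adjusted p of 1, and -0.05 in the IL-33 background.

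**Figure D4:**
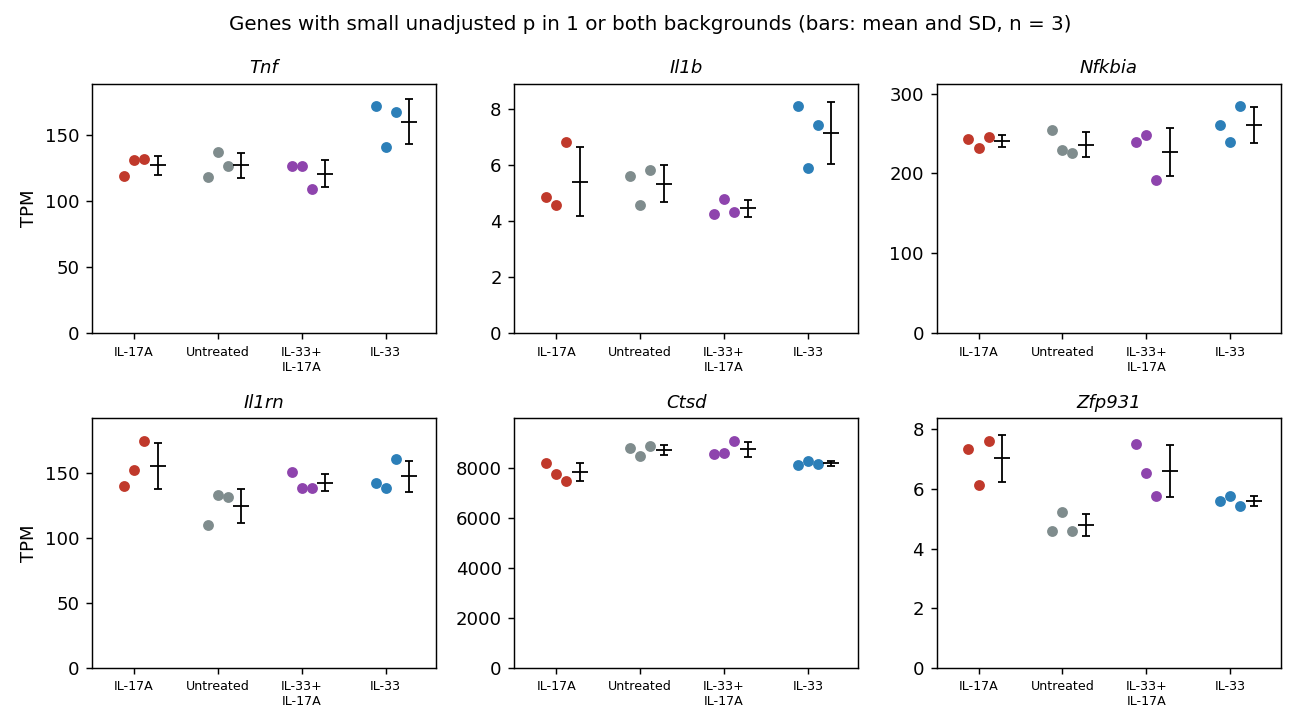
TPM (y) of 6 genes in each of the 12 libraries, 3 points per group, with the mean and SD as a bar beside them. Tnf and Il1b lie lower with IL-33+IL-17A than with IL-33, Il1rn and Zfp931 higher with IL-17A than in Untreated, and Ctsd lower with IL-17A than in Untreated and higher with IL-33+IL-17A than with IL-33, and none of these differences passed the adjusted threshold.

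In cells without IL-33, the genes with the smallest p-values included abundant transcripts of lysosomes and iron storage on the lower side. Ctsd, the lysosomal protease cathepsin D, had 8200, 7760 and 7480 TPM with IL-17A, against 8770, 8480 and 8880 TPM in untreated cells, a log2 change of -0.16 ± 0.0324 (SE) with an unadjusted limma p of 0.000119 and an adjusted p of 0.392. Ftl1, the ferritin light chain, averaged 24900 ± 256 TPM with IL-17A and 27900 ± 1430 TPM in untreated cells. The heavy chain Fth1 averaged 11600 ± 24.5 TPM with IL-17A and 12900 ± 509 TPM in untreated cells (SD, n = 3 each). Ctsb, the protease cathepsin B, averaged 2940 TPM with IL-17A and 3130 TPM in untreated cells. None of the 4 pairs of groups overlapped, but the naming rule required this, and it held for 7.82% of all tested genes. The log2 changes of Ftl1, Fth1 and Ctsb were -0.16, -0.15 and -0.092. Ferritin genes have many processed copies in the genome, so their reads may be split in the authors' counting.

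On the higher side were Slc25a10, the mitochondrial dicarboxylate carrier, with 54.9, 59.1 and 56.6 TPM with IL-17A, against 49.5, 51.1 and 49.5 TPM in untreated cells, and Tomm40, the channel of mitochondrial protein import, with 67.1, 64.6 and 63.9 TPM with IL-17A, against 56.8, 58.5 and 60.8 TPM untreated. The tubulins Tuba1a and Tubb2a, members of a family of near-identical genes, had log2 changes of 0.22 and 0.11. Slc25a10 had a log2 change of 0.18 ± 0.0347 (SE) with an unadjusted limma p of 5.77e-05 and an adjusted p of 0.323. Depth and the share of the most abundant genes also differed in this comparison. The IL-17A libraries held 11.13 to 12.86 M estimated reads, against 9.26 to 10.79 M in the untreated ones, and the 10 most abundant genes took 5.65% to 5.87% of reads with IL-17A, against 5.97% to 6.59% in untreated cells. Neither pair of ranges overlapped (exact permutation test, two-sided p = 0.1 for each, the smallest that 3 against 3 allows). The most abundant genes by estimated reads include Ctsd and Ctsb, so their share of reads is not independent of the values given above. The part of depth and of this share in these values was not tested. In the IL-33 background the depths were 9.3 to 10.91 M with IL-33 and IL-17A and 9.11 to 10.79 M with IL-33.

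The log2 changes of Ctsd, Ctsb, Ftl1 and Fth1 were positive in the IL-33 background, as were those of 8520 of all 13215 tested genes. For Ctsb, Ftl1 and Fth1 the groups overlapped there, with changes of 0.034, 0.04 and 0.023. Their unadjusted limma p-values were 0.172, 0.275 and 0.516. Ctsd had 8530, 8590 and 9060 TPM with IL-33 and IL-17A, against 8090, 8260 and 8150 TPM with IL-33, a log2 change of 0.095. Its difference between backgrounds, 0.25 ± 0.0458 (SE), had the smallest p of that comparison at 2.97e-05 and an adjusted limma p of 0.392. Leaving out 1 library at a time gave differences from 0.22 (without IL-17A replicate 3) to 0.29 (without IL-17A replicate 1). The adjusted limma p ran from 0.0448 to 0.989, and only the fit without IL-17A replicate 1 passed the threshold. Ftl1 averaged 27900 TPM with IL-33 and IL-17A and 27100 TPM with IL-33. Kti12, a tRNA modification factor, had 150, 148 and 149 TPM with IL-17A, against 153, 171 and 178 TPM in untreated cells, and 164, 171 and 163 TPM with IL-33 and IL-17A, against 140, 147 and 149 TPM with IL-33, so it stood lower with IL-17A in 1 background and higher in the other. Hdhd3, a gene of the haloacid dehalogenase family, was opposite, with log2 changes of 0.42 and -0.27. The adjusted p of the difference was 0.56 for both Kti12 and Hdhd3.

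Beyond Tnf and Il1b, the named genes of the IL-33 background were of varied kinds. Eid1, an inhibitor of differentiation, had 123, 139 and 123 TPM with IL-33 and IL-17A, against 119, 104 and 108 TPM with IL-33, and a log2 change of 0.22. Foxq1, a forkhead transcription factor, had 19.1, 18.6 and 18.5 TPM with both cytokines, against 16.6, 14 and 15.7 TPM with IL-33. Mrto4, a ribosome assembly factor, had 154, 143 and 148 TPM with both cytokines, against 167, 164 and 168 TPM with IL-33. The groups did not overlap for these 3 genes, but the naming rule required this, and it held for 10.4% of all tested genes. The adjusted limma p was 0.972 for each.

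The 2 backgrounds share no library, so each gives its own measure of the effect of IL-17A. Across the 6813 genes at 10 TPM or more, the log2 changes in the 2 backgrounds had a Pearson correlation of -0.095 and a Spearman correlation of -0.068, given as a description across genes, which are not independent replicates. Leaving out 1 library at a time gave Pearson values from -0.25 (without IL-17A replicate 1) to 0.095 (without IL-17A replicate 2). Of the 469 genes at an unadjusted p under 0.05 in the cytokine-free background, 219 (46.7%) had the same sign in the IL-33 background, and of the 497 of the IL-33 background 253 (50.9%) had the same sign in the other. In both backgrounds 39 genes were at that level, 16 with the same sign and 23 with opposite signs. The share with the same sign over all tested genes was not computed. Of all 13215 tested genes, 8424 had positive changes in the cytokine-free background and 8520 in the IL-33 background. An even split is therefore not the reference for these shares.

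**Figure D5:**
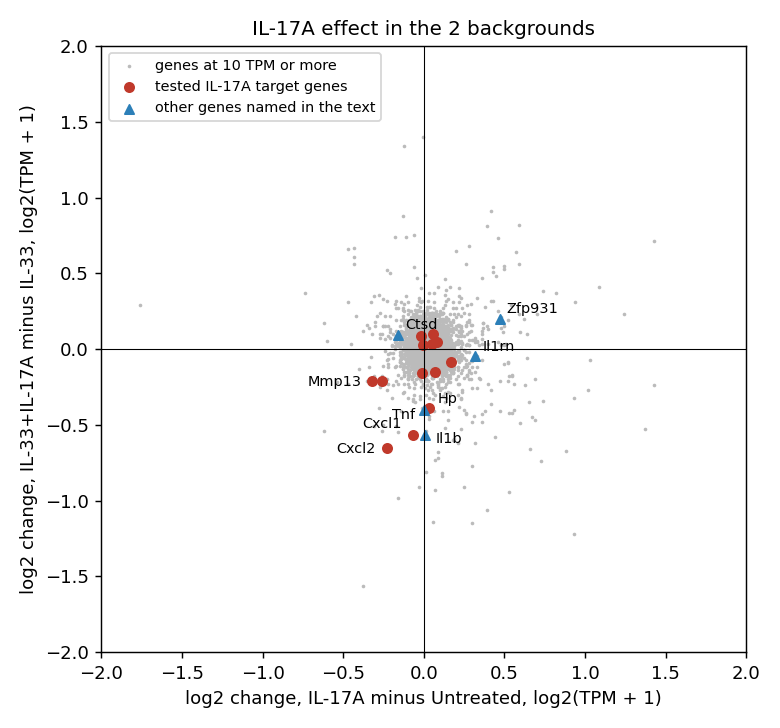
Log2 change with IL-17A in the IL-33 background (y) against that in the cytokine-free background (x), on log2(TPM + 1), for genes at 10 TPM or more in grey, tested IL-17A target genes in red and 5 other named genes as blue triangles. The correlation across the grey points is -0.095 (Pearson), Tnf and Il1b lie below 0 on the y axis and at 0 on the x axis, and 1 gene lies outside the limits of 2.

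Groups that do not overlap can be counted without a model. The 3 libraries with IL-17A lay all above or all below the 3 without for 1034 genes (7.82%) in the cytokine-free background and for 1377 (10.4%) in the IL-33 background. In both backgrounds and the same direction this held for 50 genes (0.378%), 42 higher (0.318%) and 8 lower (0.0605%) with IL-17A, and in opposite directions for 44 genes (0.333%).

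Of those 50, the named genes at 5 TPM or more had averaged log2 changes of at most 0.33 in size. Zfp931, a zinc finger gene with similar neighbours, had 7.36, 6.13 and 7.61 TPM with IL-17A, against 4.58, 5.23 and 4.58 TPM in untreated cells, and 7.5, 6.55 and 5.78 TPM with IL-33 and IL-17A, against 5.59, 5.76 and 5.44 TPM with IL-33. All 6 libraries with IL-17A lay above their comparison libraries, and the averaged log2 change was 0.33 ± 0.0648 (SE), with an unadjusted limma p of 6.51e-05 and an adjusted p of 0.86. Naa80, the enzyme that acetylates the start of actin, averaged 31.7 and 32.9 TPM with IL-17A in the 2 backgrounds, against 29.1 and 27.8 TPM without. Kctd11, an adaptor of a cullin ubiquitin ligase, averaged 81.4 and 77.3 TPM with IL-17A, against 72.5 and 70.6 TPM without. On the lower side, the ubiquitin ligase Rnf25 averaged 35.8 and 33.1 TPM with IL-17A, against 38 and 37.5 TPM without, and Gps2, a subunit of a nuclear corepressor complex that restrains inflammatory genes, averaged 158 and 155 TPM with IL-17A, against 169 and 165 TPM without. Tiprl, a regulator of protein phosphatases, had an averaged log2 change of -0.10. The adjusted p was 0.983 for each of Naa80, Kctd11, Rnf25, Gps2 and Tiprl.

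More genes stood higher than lower with IL-17A at an unadjusted p under 0.05, 350 against 119 in the cytokine-free background, 283 against 214 in the IL-33 background and 358 against 115 for the average. With TPM rescaled by median-ratio size factors the numbers were 222 against 162, 219 against 318, and 214 against 221, so this balance depended on the scaling.

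Other gene groups of macrophage biology held 0 called genes. At an unadjusted limma p under 0.05 for the average, 2.71% of all tested genes were higher and 0.87% lower, and the lists had 0 to 2 members in a direction. Of 16 tested alternative activation genes 0 were higher and 1 lower on average, Dcstamp, a protein of macrophage fusion, with a log2 change of -0.19. Of 10 tested interferon response genes 2 were higher and 0 lower. Irf7, a transcription factor of that response, had 10.3, 9.36 and 9.38 TPM with IL-17A, against 9.74, 6.7 and 8.01 TPM in untreated cells, and 9.06, 11.2 and 10.5 TPM with IL-33 and IL-17A, against 8.77, 7.94 and 8.28 TPM with IL-33, with a log2 change of 0.25. The groups overlapped without IL-33 and did not overlap with it. Of 15 integrated stress response genes 2 were higher and 0 lower, Mthfd2, a mitochondrial folate enzyme, with 0.10 and Nupr1 with 0.19. In single backgrounds these 3 lists had 0 to 2 members in a direction. Of 21 cell cycle genes 2 were higher and 0 lower, the replication helicase gene Mcm3 with 0.12 and the cell cycle inhibitor Cdkn1c with 0.28, and of 12 antioxidant and heme genes 0 were higher and 2 lower, the ferritins Fth1 and Ftl1. Of 20 neutrophil and phagocyte receptor genes, 19 lipid handling genes and 15 hypoxia and glycolysis genes, 0 were at that level on average in either direction, and all of them had 95% intervals of the averaged change inside 2-fold. In single backgrounds 2 of the receptors were lower with IL-33 and IL-17A than with IL-33 at that level, the formyl peptide receptor Fpr1 (-0.44) and the lectin Clec4e (-0.26), where 1.62% of all genes were lower. Of the lipid genes, the scavenger receptor Cd36 was lower with IL-17A than in untreated cells (-0.097) and the lipid droplet protein Plin2 higher with IL-33 and IL-17A than with IL-33 (0.065), and 0 of the hypoxia and glycolysis genes were at that level in either background. Of 16 matrix and protease, 15 immediate early and 9 antigen presentation genes, 0 were at that level on average. The first list had 2 higher and 2 lower in the cytokine-free background, and the second 1 higher there. The third had 1 higher and 1 lower in the IL-33 background. At that level 2.65% of all tested genes were higher and 0.9% lower in the cytokine-free background. In the IL-33 background the shares were 2.14% and 1.62%. Of 4 tested markers of monocytes and interstitial macrophages, 1 was at that level, C1qa, a complement gene, with 8.66, 9.58 and 8.4 TPM with IL-17A, against 9.1, 7.75 and 5.94 TPM in untreated cells, and 7.9, 8.84 and 6.67 TPM with IL-33 and IL-17A, against 5.22, 5 and 6.43 TPM with IL-33. The other subunits of the same complement complex, C1qb and C1qc, had averaged log2 changes of 0.043 and 0.03, and changes of -0.20 and -0.17 in the IL-33 background, where 1 of the 4 markers was positive and 3 negative. The summed level of the list ran over 12.9 to 15.4 TPM with IL-17A and 8.97 to 13.2 TPM in untreated cells, and over 10.2 to 13.6 TPM with IL-33 and IL-17A and 10 to 11.2 TPM with IL-33, and its part in other results was not tested. The C1qa groups overlapped without IL-33 and did not overlap with it, and the averaged log2 change was 0.32 at an unadjusted limma p of 0.0308.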

How the data were processed

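RNA was sequenced from 24 libraries, 3 in each of 8 groups, and 12 libraries without IL-13 are compared here. The authors deposited 1 table of TPM values per library, made from STAR alignments on the mm10 build, per the submitters' processing notes. The version of STAR, the counting tool and the strand setting: not given in the sources used here. Per the file headers a length stands beside each TPM value, and it equalled the gene span for all 17017 genes. TPM times length, divided by 1 constant per library, was within 0.05 of a whole read for 90.2% to 91.7% of values up to 20 reads, so these reads are estimates and count tests were not used. limma-trend (limma 3.58.1, R 4.3.3) was run on log2(TPM + 1), a scale that understates changes of low genes, with 8 group means and 16 residual degrees of freedom. p-values were adjusted by Benjamini-Hochberg over the 13215 genes with 1 TPM or more in at least 3 libraries. The gene lists and comparisons were chosen with earlier results of these data known. Named genes are the members of the IL-17 lists, up to 4 genes of each other list by averaged p, and those of smallest p (8 per direction on average, 5 elsewhere) at 5 TPM or more, with groups that do not overlap for single backgrounds and the average. Ccl3, Clec4e and the marker genes given by level (the highest member of each list and some lowest ones), were named outside this rule, after their values were seen. The fit was tested on simulated data. Levels per kilobase of exon use the merged exons of the reference annotation. Promoter sequences are from RefSeq (GRCm38.p6), and coordinates are 1-based on mm10. Alternatives were other pseudocounts, filters, scalings, libraries in the fit, library weights and limma-voom. Figures were drawn with matplotlib 3.10.9.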

Additional observations from a re-analysis of the deposited data

How the results depend on the processing

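Calls were 0 in most alternatives. With only the 12 libraries without IL-13 in the fit, 1 gene was called in the cytokine-free background, 1 on average and 1 for the difference, the pseudogene Rpl31-ps12 each time, with a mean of 0.569 TPM. With only the compared groups in the fit, 5 genes were called in the cytokine-free background (Rpl31-ps12, Gm7774, Cox6c2, Rpl13-ps5 and Gm16089, all processed pseudogenes) and 6 in the IL-33 background (Gm5510, Gm6900, Supt4b, Gm10752, Gm6363 and Gm21178, of which 5 are processed pseudogenes). Without the libraries of title numbers 30 to 32, 1 gene (Gm47155) was called in the IL-33 background and for the difference, with the lone IL-33+IL-17A library assumed to vary like the other groups. Leaving out each library in turn gave 0 to 1 calls for the difference, the 1 being Ctsd without IL-17A replicate 1, and 0 elsewhere. Library weights (arrayWeights) called 0. At an unadjusted limma p under 0.05 they put 1024 genes (7.75%) in the cytokine-free background and 1300 (9.84%) in the IL-33 background. They put 945 (7.15%) there for the average and 1314 (9.94%) for the difference. With only the compared groups in the fit there were 458 (3.47%) in the cytokine-free and 763 (5.77%) in the IL-33 background. The main fit had 3.55%, 3.76%, 3.58% and 3.53% in the order of the 4 comparisons. The cause of these shifts was not tested. The share of genes with an interval inside 2-fold, 98%, 98% and 99.1% at 10 TPM or more, was 95%, 94.5% and 97.1% for 1.5-fold, 86.3%, 86.1% and 92.2% over all tested genes and 73.8%, 73.5% and 84.8% below 10 TPM. Without 1 library it ran from 97.2% to 98% in the cytokine-free background and from 97.3% to 98% in the IL-33 background. The correlation between backgrounds was -0.061 over all tested genes and -0.068 by Spearman's measure, and from -0.25 to 0.095 without 1 library. Genes whose groups do not overlap in both backgrounds with the same direction numbered 30 at 10 TPM or more. Without 1 library they numbered 80 to 146, where groups of 2 overlap less easily. In opposite directions there were 24 at 10 TPM or more and 76 to 153 without 1 library. For the 139 named genes, 1 of 3331 alternative values changed its call, that of Ctsd. The sign turned in 120 of them, in 29 of 152 pairs of gene and comparison, all uncalled, Il17ra (8 alternatives), Traf6 (3) and Cebpb (6) among them. Tnf in the IL-33 background ran from -0.49 (without IL-33 replicate 2) to -0.29, with adjusted p-values from 0.205 to 1. Il1b ran from -0.71 to -0.36, with adjusted p-values from 0.247 to 1. Averaged Cxcl2 was -0.17 without the libraries of title numbers 30 to 32. The planned edgeR, DESeq2 and TMM settings were not run because the estimated reads are not all whole, and limma-voom with library totals, and the correlation after median-ratio scaling, were chosen after seeing the data. No paired analysis was possible because the labels give the groups no shared replicate numbers.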
